A study of Mus musculus with 16 samples.

Results

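The 9 genes described here encode 4 bone morphogenetic proteins (the BMP ligands Bmp2, Bmp4, Bmp5 and Bmp7), 2 secreted antagonists that bind BMPs outside the cell (Grem1, gremlin 1, and Nog, noggin) and 3 inhibitors of DNA binding (Id1, Id2 and Id3), out of 26653 distinct genes in 3 tables of mouse RNA sequencing. They were looked up by symbol in all 3 tables. Because the set was chosen by the measured values of each mutant against its control, the differences in those comparisons are given as a description. Their calls are listed, and nothing is read from them. Each table lists 7 of the 9 genes, and 5 of them (Bmp4, Nog, Id1, Id2 and Id3) stand in every table. Bmp5 and Grem1 are not listed for the embryonic stem cells, Bmp2 and Bmp7 not for the embryonic fibroblasts, and Bmp2 and Bmp5 not for the kidney fibroblasts. All 7 listed genes passed the filter on low values in each table, a mean of at least 1.

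The 16 libraries form 8 groups of 2 and come from control cells and from cells in which 1 gene was disrupted. The mouse embryonic stem cell (ESC) groups were a wild type, an Actb K.O. (knockout of the beta-actin gene, KO below) and an Actb full locus deletion. The mouse embryonic fibroblast (MEF) groups were a wild type, an Actg1 K.O. (gamma-actin) and an Actg1 full locus deletion. Mouse kidney fibroblasts (MKFs) were Kindlin-2 K.O. or Kindlin-2 floxed, the latter being the control. The number of clones behind each mutant, the recombinase used on the floxed cells and the age of the source animals are not given in the sources used here. Libraries carry the numbers 1 and 2 in the labels, with no word on whether each had its own culture. Every p-value below therefore rests on library-to-library spread that may be purely technical.

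BMPs are secreted dimers that bring together type I and type II serine/threonine kinase receptors, which phosphorylate SMAD1, SMAD5 and SMAD9. These join SMAD4 in the nucleus, where the Id genes are among their best known targets. Id proteins lack a DNA-binding region and hold E proteins such as TCF3 in inactive pairs, and in embryonic stem cells BMP4 is known to support self-renewal through them. Gremlin 1 and noggin bind ligands before they reach the receptor, and fibroblasts are a known source of gremlin 1.

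The genes lie apart from each other on GRCm38. Bmp4 (ENSMUSG00000021835) lies on chromosome 14 at 46383520 to 46390669, Bmp5 (ENSMUSG00000032179) on chromosome 9 at 75775364 to 75900310, and Nog (ENSMUSG00000048616) on chromosome 11 at 89300638 to 89302332. Chromosome 2 holds Grem1 (ENSMUSG00000074934, 113746164 to 113758646), Bmp2 (ENSMUSG00000027358, 133552159 to 133562885), Id1 (ENSMUSG00000042745, 152736251 to 152737410) and Bmp7 (ENSMUSG00000008999, 172868012 to 172940321). Id2 (ENSMUSG00000020644) lies on chromosome 12 at 25093799 to 25097140 and Id3 (ENSMUSG00000007872) on chromosome 4 at 136143497 to 136145755. Bmp4 overlaps the antisense genes Gm15217 and Gm15222, and Bmp5 overlaps Gm47723 on its own strand and Gm26903 on the other. Whether reads were counted by strand is not given in the sources used here, so reads of these overlapping genes cannot be told apart.

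RefSeq start sites (GRCm38.p6) with 250 bases before them were matched for 5 of the 9 genes: Bmp4, Bmp5, Grem1, Id2 and Id3. The sequences below are shown because Bmp4, Bmp5 and Grem1 carry the fibroblast results and Id2 is the Id gene called in opposite directions in the 2 MEF mutants. They are written 5′ to 3′ along each gene's strand and end at the base before the start site, with bases inside the exons of GENCODE M21 left out. That removes the last base of the Bmp5 window, and the Id2 stretch, which is the upstream part of its window, lies within the gene as GENCODE draws it. The Id3 window lies in annotated exon and is not shown. Capitals mark the GC-rich SMAD element GGCGCC and the GC box GGGCGG.
Bmp4, chr14:46390670-46390919, minus strand: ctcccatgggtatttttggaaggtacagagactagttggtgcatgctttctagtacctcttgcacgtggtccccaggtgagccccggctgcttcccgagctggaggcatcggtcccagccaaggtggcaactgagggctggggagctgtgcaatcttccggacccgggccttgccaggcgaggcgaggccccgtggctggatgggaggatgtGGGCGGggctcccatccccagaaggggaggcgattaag
Bmp5, chr9:75775115-75775363, plus strand: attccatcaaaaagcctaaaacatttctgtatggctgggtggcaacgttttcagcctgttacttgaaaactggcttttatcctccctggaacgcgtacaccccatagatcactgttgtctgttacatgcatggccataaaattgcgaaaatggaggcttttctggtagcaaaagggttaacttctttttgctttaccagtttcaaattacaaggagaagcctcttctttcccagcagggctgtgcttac
Grem1, chr2:113758649-113758898, minus strand: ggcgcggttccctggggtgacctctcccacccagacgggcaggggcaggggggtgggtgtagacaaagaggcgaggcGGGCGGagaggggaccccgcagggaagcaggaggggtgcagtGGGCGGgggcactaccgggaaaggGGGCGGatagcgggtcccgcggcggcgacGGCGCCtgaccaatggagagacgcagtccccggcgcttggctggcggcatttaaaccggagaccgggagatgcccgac
Id2, chr12:25096254-25096342, minus strand: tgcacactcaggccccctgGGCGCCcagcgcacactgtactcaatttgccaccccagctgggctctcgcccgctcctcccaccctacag
GGCGCC was found once each in the windows of Grem1 (first base 78 bases before the start) and Id2 (231 bases before it), and in 9.59 percent of all 32851 promoter windows of this length. The GC box, searched on both strands, stood 3 times in Grem1, 2 times in Id3, once in Bmp4 and Id2 and 0 times in Bmp5, against 32.7 percent of windows with at least 1. The SMAD half-site GTCT was in all 5 windows and in 82.9 percent of all windows, and TGACG, part of the cyclic AMP response element, was in Id3 only among the 5 and in 17.8 percent of all. No CArG box, the element bound by serum response factor, was in the 5 windows, and 1.47 percent of windows held one. The Bmp5 window had 42.8 percent G and C, below the median of 52.4 percent over all windows, and Grem1 had 72 percent. These matches describe letters in a window and show no binding.

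All levels are normalised read counts, the whole-number values of the tables, which were scaled separately for ESCs, MEFs and MKFs. Differences are in log2(value + 1) with standard errors (SE) from a limma fit over each table. The targeted genes were lower in every mutant library: Actb stood at 36364 and 34140 in wild-type, 23650 and 22707 in KO and 2372 and 2336 in locus-deletion ESCs. Actg1 stood at 5737 and 5672, 1004 and 1026, and 25 and 15 in the same order in MEFs, and Fermt2, the gene of Kindlin-2, at 3078 and 3142 in floxed and 1251 and 1240 in KO MKFs. The summed values of a library lay between 16022043 and 16529089 in the ESC table, between 20305511 and 22094490 in the MEF table and between 15565648 and 16324223 in the MKF table. The summed level of 8 ESC markers ran from 43216 to 46090 over the 6 ESC libraries. Of 8 fibroblast markers the MEF table lists all, while Col3a1, Thy1 and Dcn are not listed for MKFs. Dcn (decorin) was at 17 and 14 in wild-type, 12 and 5 in locus-deletion and 8037 and 7653 in KO MEFs, and Col1a1 was at 49 and 64 in floxed and 10 and 8 in KO MKFs.

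**Figure D1:**
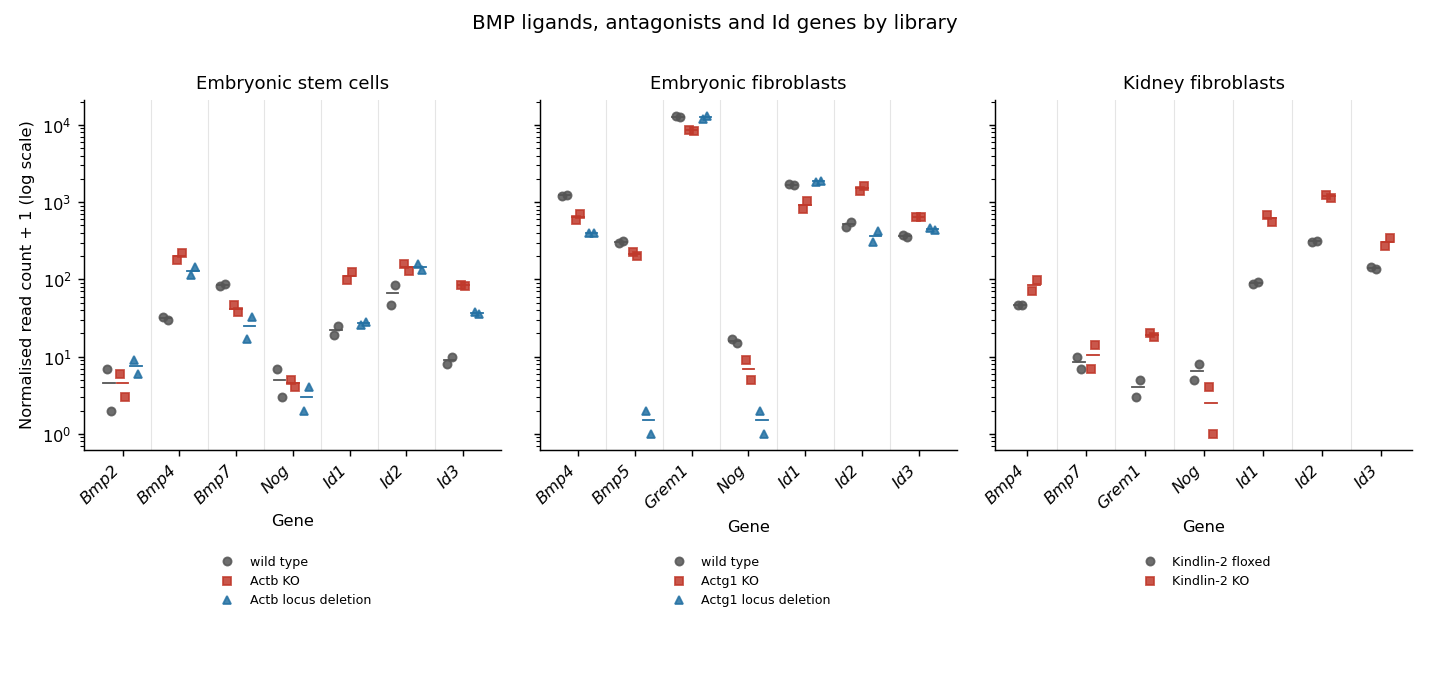
Normalised read count plus 1 on a log axis for each gene listed in the 3 tables, with 1 point per library and a short line at the mean of 2 libraries, by genotype. Bmp4, Id1 and Id3 of the Actb KO lie above wild type in ESCs, Bmp5 and Nog of the Actg1 locus deletion lie at the bottom of the MEF panel at 1 and 0, and all 3 Id genes of the Kindlin-2 KO lie above the floxed libraries in MKFs.

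Scaled by exon length and library sum (per kilobase and per 1000000 summed values), the scale used to compare genes, Grem1 was the highest of the 9 genes in wild-type MEFs at 142, followed by Id1 at 67.0, Bmp4 at 25.2, Id2 at 9.88, Id3 at 9.47, Bmp5 at 3.48 and Nog at 0.41. The 2 libraries of Id2 and those of Id3 overlapped on this scale, and the other neighbours in that order did not. Wild-type ESCs had far lower levels: Id2 at 1.66, Bmp7 at 1.29, Id1 at 1.13, Bmp4 at 0.845, Id3 at 0.278, Nog at 0.147 and Bmp2 at 0.0613. Here Id2 overlapped with Bmp7, Bmp7 with Id1, and Nog with Bmp2. Floxed MKFs had Id2 at 7.86, Id3 at 4.83, Id1 at 4.73, Bmp4 at 1.27, Nog at 0.201, Bmp7 at 0.116 and Grem1 at 0.0447, with overlap between Id3 and Id1. Levels from different tables are only roughly comparable.

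Bmp4, the higher of the 2 listed ligands per length in both fibroblast tables, was higher in both ESC mutants and lower in both MEF mutants than in their controls. In ESCs it stood at 32 and 29 in wild type, 179 and 220 in the Actb KO and 112 and 145 in the locus deletion. The difference was 2.66 (SE 0.207) for the KO and 2.03 (SE 0.207) for the locus deletion, or 6.54 and 4.21 times the control mean. In MEFs it stood at 1207 and 1243 in wild type, 578 and 700 in the Actg1 KO and 398 and 400 in the locus deletion, with differences of −0.94 (SE 0.0973) and −1.62 (SE 0.0973). The locus deletion was lowest. In MKFs the floxed libraries were at 46 and 46 and the Kindlin-2 KO libraries at 69 and 96 (0.81, SE 0.198).

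Bmp5, a ligand of skeletal and mesenchymal development, was the member with the widest range in MEFs. It stood at 293 and 312 in wild type, 224 and 201 in the Actg1 KO and 1 and 0 in the locus deletion. The KO libraries were below wild type by 0.51 on the log2 scale (−0.51, SE 0.33), and the locus deletion was nearly without Bmp5 reads. Reading the values as counts, wild type had 605 times the locus-deletion sum, with a 95 percent interval of 108.2 to 2.394e+04 that covers counting error only. The log2 difference of −7.74 (SE 0.33) depends on the pseudocount and ran from −8.45 to −5.81 over the other settings. Among the ligands of ESCs, Bmp7 went the other way from Bmp4. Bmp7, known for its role in kidney and eye development, stood at 80 and 86 in wild type, 45 and 37 in the Actb KO and 16 and 32 in the locus deletion (−1.01 and −1.83, both SE 0.329). All mutant libraries were below both wild-type libraries. Bmp7 in MKFs was at 9 and 6 in floxed and 6 and 13 in KO, and Bmp2 in ESCs at 6 and 1 in wild type, 5 and 2 in KO and 8 and 5 in the locus deletion, with overlapping groups in each case. The summed ligand members of ESCs were 118 and 116 in wild type, of which Bmp7 made up 70.9 percent, and 229 and 259 in the KO, of which Bmp4 made up 81.8 percent.

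Grem1, an antagonist that binds BMP2 and BMP4, was high in MEFs. It stood at 12928 and 12520 in wild type, 8591 and 8372 in the Actg1 KO and 11946 and 13057 in the locus deletion. The KO libraries were lowest (−0.59, SE 0.0621, beside a median of −0.44 over the genes of its chromosome), and the locus-deletion libraries overlapped those of wild type (−0.03, SE 0.0621). In MKFs Grem1 was low, at 2 and 4 in floxed and 19 and 17 in KO (2.29, SE 0.387). Nog was low in every table. In MEFs it stood at 16 and 14 in wild type, 8 and 4 in the KO and 1 and 0 in the locus deletion (−1.25 and −3.50, both SE 0.554). Wild type had 30 times the locus-deletion sum, with a counting interval of 4.987 to 1224. In ESCs Nog was at 6 and 2, 4 and 3, and 1 and 3 in wild type, KO and locus deletion, and in MKFs at 4 and 7 in floxed and 3 and 0 in KO, too few reads to read a direction.

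Id1, the Id gene most abundant per length in wild-type MEFs, was higher in the Actb KO of ESCs and close to wild type in the locus deletion. It stood at 18 and 24 in wild type, 96 and 122 in the KO and 25 and 27 in the locus deletion, differences of 2.33 and 0.31 (both SE 0.263). In MEFs the KO was the low group: 1697 and 1661 in wild type, 823 and 1022 in the Actg1 KO and 1819 and 1886 in the locus deletion (−0.87 and 0.14, both SE 0.0991). In MKFs Id1 stood at 85 and 92 in floxed and 680 and 560 in the Kindlin-2 KO, 7.01 times the floxed mean (2.79, SE 0.119). Id1 thus lay above its control in the ESC and MKF knockouts and below it in the MEF knockout.

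Id2 did not follow Id1. In ESCs it was similarly high in both mutants, at 157 and 127 in the KO and 156 and 132 in the locus deletion against 46 and 84 in wild type (1.17 and 1.19, both SE 0.279). In MEFs Id2 stood at 482 and 559 in wild type, 1393 and 1608 in the Actg1 KO and 307 and 417 in the locus deletion (1.53 and −0.54, both SE 0.152). It was thus highest in the KO libraries in which Id1 was lowest. In MKFs it stood at 306 and 312 in floxed and 1238 and 1130 in KO (1.93, SE 0.0649).

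Id3 was above its control in all 5 comparisons of a mutant with its control. Since these comparisons chose the gene, nothing is read from that count. In ESCs it stood at 7 and 9 in wild type, 84 and 81 in the Actb KO and 37 and 35 in the locus deletion (3.22 and 2.05, both SE 0.268). In MEFs it stood at 377 and 356, 643 and 643, and 467 and 437 in wild type, KO and locus deletion (0.81 and 0.30, both SE 0.0797). In MKFs it stood at 143 and 136 in floxed and 269 and 340 in KO (1.11, SE 0.133). The same wild-type libraries serve both mutants of the ESC and MEF tables, so those comparisons are not independent of each other.

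**Figure D2:**
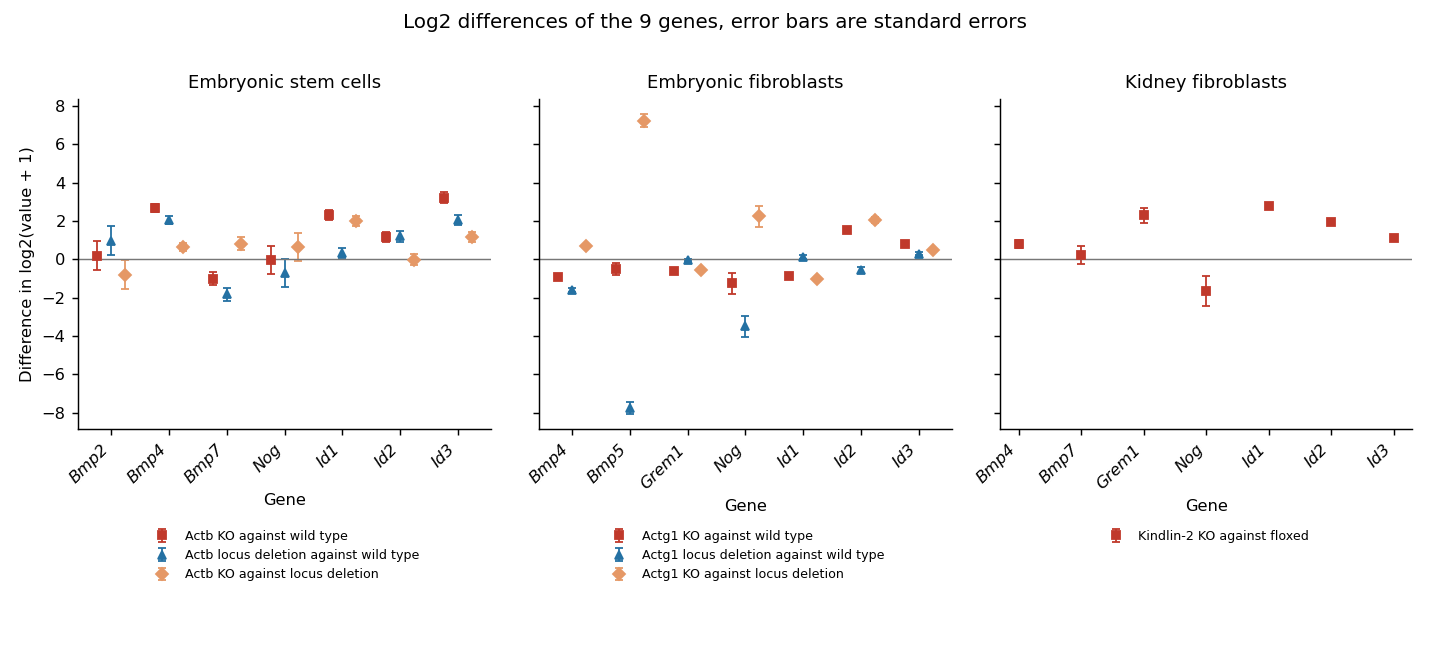
Difference in log2(value + 1) of each gene in each comparison, with the standard error of the limma fit as the error bar. Id3 lies above 0 in every comparison with a control, Bmp5 of the Actg1 locus deletion lies at −7.74, and Id1 and Id2 of the Actg1 KO lie on opposite sides of 0.

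The 3 Id genes together showed different totals and different mixtures. Their summed values were 71 and 117 in wild-type, 337 and 330 in KO and 218 and 194 in locus-deletion ESCs. Id2 made up 69.2 percent of the wild-type and 69.9 percent of the locus-deletion sum and 42.6 percent in the KO, where Id1 took 32.7 and Id3 24.7 percent. In MEFs the sums were 2556 and 2576 in wild type, 2859 and 3273 in the KO and 2593 and 2740 in the locus deletion, with the KO highest. The mixture differed too: Id1 made up 65.4 percent in wild type, 69.5 percent in the locus deletion and 30.1 percent in the KO, where Id2 made up 48.9 percent. In MKFs the sum was 534 and 540 in floxed and 2187 and 2030 in the Kindlin-2 KO, and the share of Id2 was 57.5 and 56.2 percent.

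**Figure D3:**
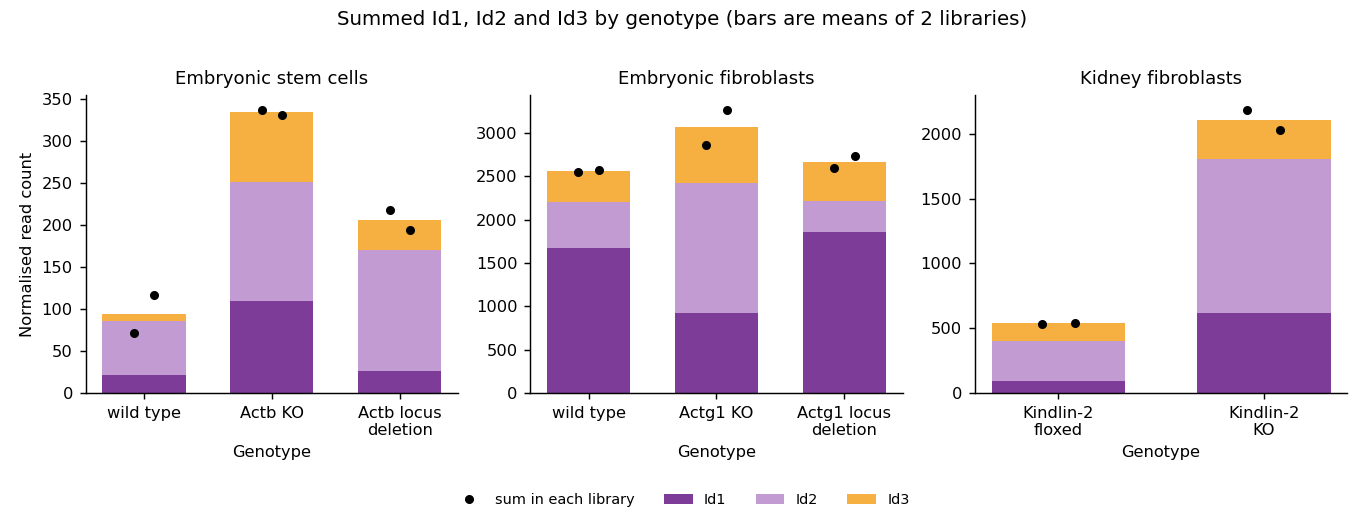
Stacked mean normalised read counts of Id1, Id2 and Id3 by genotype on a linear axis from 0, with black points for the sum in each of the 2 libraries. Each knockout bar is taller than its control bar, and the Actg1 KO bar of MEFs is split mainly between Id1 at 30.1 percent and Id2 at 48.9 percent.

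By the limma call, an adjusted p below 0.05 over all genes of a table, 3 of the 7 members were called in Actb KO ESCs, all higher, where 2.44 percent of 23054 genes were called higher and 2.44 percent lower. Id2 was called as well once the library number was added as a replicate block. Rescaling each library without its most abundant genes (those above 1 percent of its sum) moved the share of higher calls from 50 to 37.3 percent in this comparison. In the Actb locus deletion 3 members were called higher and 1 lower, against 5.19 percent of genes higher and 6.0 percent lower. In the Actg1 KO 2 were called higher and 3 lower, against 20.6 and 19.1 percent of 21589 genes, and in the Actg1 locus deletion 1 higher and 4 lower, against 9.46 and 12.6 percent. In the Kindlin-2 KO 5 were called higher, against 24.3 percent of 18288 genes called higher and 24.9 percent lower. Since these contrasts chose the members, nothing is read from the counts. In the Actb KO the calls of Bmp4, Id1 and Id3 were all lost with any 1 of the 4 libraries left out, at log2 differences of 2.52 to 2.81, 2.13 to 2.52 and 3.06 to 3.38.

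The direct comparison of KO and locus deletion is the difference of the same mutant values that chose the members. It too is a description, and nothing is read from its calls. In ESCs Id1 was higher in the KO than in the locus deletion by 2.02 (SE 0.263), Id3 by 1.17 (SE 0.268), Bmp7 by 0.82 (SE 0.329) and Bmp4 by 0.63 (SE 0.207). Bmp7 and Bmp4 were not called. Id2 overlapped between the mutants (−0.02, SE 0.279). Of the 7 members 2 were called, both higher in the KO, where 2.56 percent of genes were called higher and 2.32 percent lower, and both calls were lost with any 1 of the 4 libraries left out.

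In MEFs Grem1 (−0.56, SE 0.0621) and Id1 (−1.01, SE 0.0991) were lower in the KO than in the locus deletion. Id2 was higher in the KO by 2.06 (SE 0.152), Bmp4 by 0.67 (SE 0.0973) and Id3 by 0.51 (SE 0.0797). Bmp5 and Nog were at 1 and 0 in the locus deletion, so their differences of 7.24 and 2.25 depend on the pseudocount. Here 5 members were called higher and 2 lower, against 24.5 and 20.7 percent of genes, and nothing is read from these counts either.

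Whole chromosomes were shifted in the fibroblast tables. Their part in the differences of the members and of the other pathway genes below was not tested. On chromosome 2, which holds Grem1 and Id1, the 1645 genes tested in MEFs had a median difference of −0.44 in the Actg1 KO, 0.09 in the locus deletion and −0.54 between KO and locus deletion. The differences of Grem1 were −0.59, −0.03 and −0.56 and those of Id1 −0.87, 0.14 and −1.01 in the same order. On chromosome 4, which holds Id3, the median of 1213 genes was 0.18 in the Actg1 KO, −0.47 in the locus deletion and 0.65 between them, beside 0.81, 0.30 and 0.51 for Id3. The chromosomes of Bmp5 (9), Id2 (12) and Bmp4 (14) had medians of −0.23, −0.18 and 0.05 in the Actg1 KO and −0.02, −0.15 and −0.19 in the locus deletion. In MKFs the medians of chromosomes 12 and 14 were 0.71 and −0.27, beside 1.93 for Id2 and 0.81 for Bmp4, and that of chromosome 2 was 0.23, beside 2.79 for Id1 and 2.29 for Grem1. In both ESC mutants the medians of the chromosomes that hold members lay between −0.04 and 0.05.

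Markers of other cells differed beside these values, and their part in the results was not tested. In bulk RNA fewer cells of a type and less RNA per cell cannot be told apart. The shares of all genes called in each comparison are those given above for the members. In Actb KO ESCs 2 of 5 listed markers of mesoderm and primitive streak (T and Eomes) were called higher, with list sums of 161 and 156 in wild type, 293 and 284 in the KO and 82 and 91 in the locus deletion, where Eomes was called lower. Of 5 epithelial markers Krt8 (105 and 92 to 344 and 286) and Krt18 (88 and 60 to 339 and 302) were higher and Cdh1 lower in the Actb KO, and 4 were lower in the locus deletion, with sums of 12900 and 12386 in wild type, 9609 and 9580 in the KO and 7711 and 7559 in the locus deletion. Of 5 kidney tubule markers the ESC table lists 2. Lrp2, 1 of these, went from 1361 and 1421 to 6433 and 6126 in the KO and 2060 and 1815 in the locus deletion. Of 6 primitive endoderm markers, Dab2 went from 27 and 39 to 138 and 115 in the KO. Sox7 was called higher and Gata4 lower in both mutants (Gata4 from 34 and 28 to 8 and 7 in the KO). Of 6 trophoblast markers, Cdx2 went from 1 and 3 to 16 and 31 in the KO and 13 and 13 in the locus deletion. Tfap2c was lower in the KO (1545 and 1632 to 929 and 1005). The trophoblast sums were 1576 and 1663 in wild type, 1003 and 1084 in the KO and 1965 and 1762 in the locus deletion. In Actg1 KO MEFs 5 of 8 fibroblast markers were higher and 1 lower, with sums of 96836 and 86444 in wild type, 78688 and 83460 in the locus deletion and 247560 and 261927 in the KO. Of 4 listed muscle markers 3 were higher and 0 lower in the KO, with sums of 543 and 543 in wild type and 2232 and 2252 in the KO. Of 3 listed stem cell markers Nanog and Sox2 were higher (Sox2 from 44 and 32 to 1326 and 1306) and Klf4 lower. In Kindlin-2 KO MKFs all 5 epithelial markers were higher (sums of 2046 and 2187 in floxed and 20292 and 20867 in KO) and 4 of 5 listed fibroblast markers lower with 1 higher (48766 and 48989, and 24147 and 27871). All 3 listed macrophage and blood markers were higher (162 and 164, and 245 and 264). All 3 listed neural markers were lower (11607 and 12150, and 8820 and 9290). Epcam, an epithelial adhesion gene, went from 26 and 11 to 3430 and 3401 in those cells. The MKF table also lists 2 of the 5 kidney tubule markers, and Lrp2 was called lower in the KO. Their sums were 3511 and 3322 in floxed and 741 and 773 in KO.

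Other genes of the BMP pathway, 67 in 7 lists, were tested in the same fits, and a gene is said to have risen or fallen only where it passed. These lists too were drawn up with earlier results of these data known. In Actb KO ESCs 4 of 52 rose and 3 fell, with a median difference of −0.10 beside 0.00 over all genes. In the Actb locus deletion 2 rose and 7 fell (median −0.04 beside 0.01). Adding the library number as a block gave 8 that rose and 5 that fell in the KO, and 5 and 9 in the locus deletion. With any 1 of the 4 libraries left out, 0 of the 52 passed in the KO, at 17 to 21 with an unadjusted p below 0.05 by limma, and 0 to 2 passed in the locus deletion. In Actg1 KO MEFs 17 of 52 rose and 12 fell (median 0.00 beside 0.06), and 18 in all passed without KO library 1. In the Actg1 locus deletion 9 rose and 14 fell (median −0.22 beside 0.00), with 8 to 14 in all when 1 of the 4 libraries was left out. In Kindlin-2 KO MKFs 10 of 44 rose and 16 fell (median −0.13 beside 0.01), with 8 to 13 in all when 1 library was left out. The shares of all genes called are those given above.

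**Figure D4:**
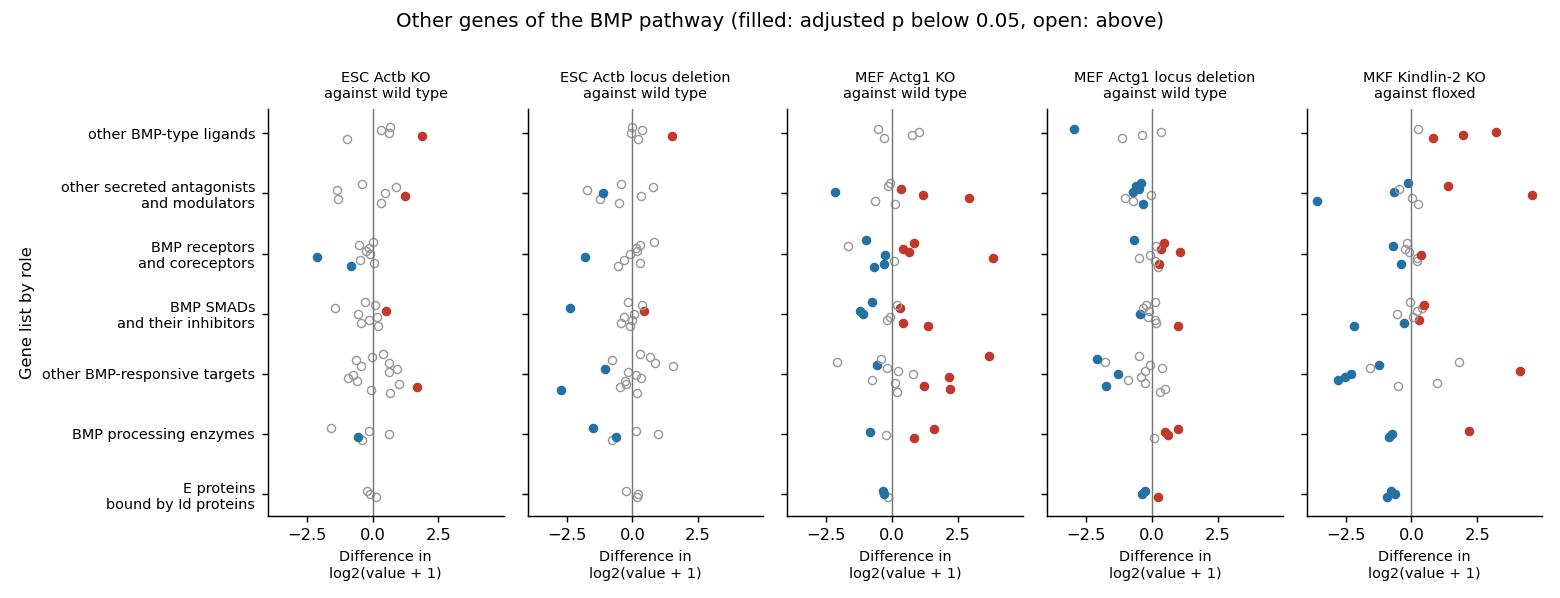
Difference in log2(value + 1) of the other BMP pathway genes, 1 point per gene and 1 row per list, in the 5 comparisons of a mutant with its control. Filled points passed an adjusted p of 0.05 (red higher, blue lower) and open points did not. Among the antagonists Fst lies at −2.16 in the Actg1 KO and at 4.57 in the Kindlin-2 KO.

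Among the other BMP-type ligands, Bmp8a rose in both ESC mutants. It stood at 16 and 12 in wild type, 55 and 53 in the KO (1.89, SE 0.265, limma, adjusted p = 0.00763) and 42 and 41 in the locus deletion (1.52, SE 0.265, adjusted p = 0.00954 by limma). Of 4 ligands tested in MKFs, 3 rose in the Kindlin-2 KO, where 24.3 percent of all genes were called higher. Bmp6, known as a regulator of iron balance, went from 66 and 61 to 240 and 253 (1.94, SE 0.101, limma, adjusted p = 0.000224), and held with each library left out. Bmp3 went from 28 and 25 to 48 and 47 (0.82) and Bmp8a from 1 and 4 to 29 and 28 (3.22). Gdf6, a ligand of joint formation, fell in the Actg1 locus deletion, from 5 and 9 to a listed value of 0 in both libraries.

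Among the other secreted antagonists of MEFs, follistatin fell in both mutants. Fst, follistatin, which binds activin and some BMPs, fell from 1328 and 1369 to 317 and 285 in the KO (−2.16, SE 0.0947, limma, adjusted p = 4.86e-06) and to 773 and 897 in the locus deletion (−0.69, adjusted p = 0.0019 by limma, up to 0.0564 with 1 library left out). In the KO Chrdl1 (chordin-like 1) rose, from 1 and 1 to 12 and 17, as did Fstl1 (0.33), a follistatin-like glycoprotein, and Dand5 (1.19), a secreted antagonist of Nodal and BMPs. Dand5 lies on chromosome 8, where the median difference over 1183 genes in the KO was 0.32. In the locus deletion Nbl1 (−0.61), Fstl1 (−0.50), Twsg1 (−0.41) and Bmper (−0.33) fell too. Nbl1 lies on chromosome 4, where the median difference over 1213 genes in the locus deletion was −0.47.

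Follistatin went the other way in kidney fibroblasts. Fst stood at 26 and 28 in floxed and 683 and 645 in Kindlin-2 KO MKFs, a rise of 4.57 (SE 0.0972, limma, adjusted p = 4.76e-05). Chrdl1 fell from 96 and 109 to 4 and 14 (−3.58, SE 0.544, limma, adjusted p = 0.00539) and lost the call without either floxed library (limma, adjusted p = 0.156 and 0.164). Nbl1 rose by 1.41, while Fstl1 fell by 0.68 and Twsg1 by 0.14. In ESCs Fst rose in the Actb KO from 144 and 158 to 341 and 361 (1.21, SE 0.149, limma, adjusted p = 0.00473), and Fstl1 fell in the locus deletion from 747 and 737 to 322 and 359 (−1.12, adjusted p = 0.00102 by limma).

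**Figure D5:**
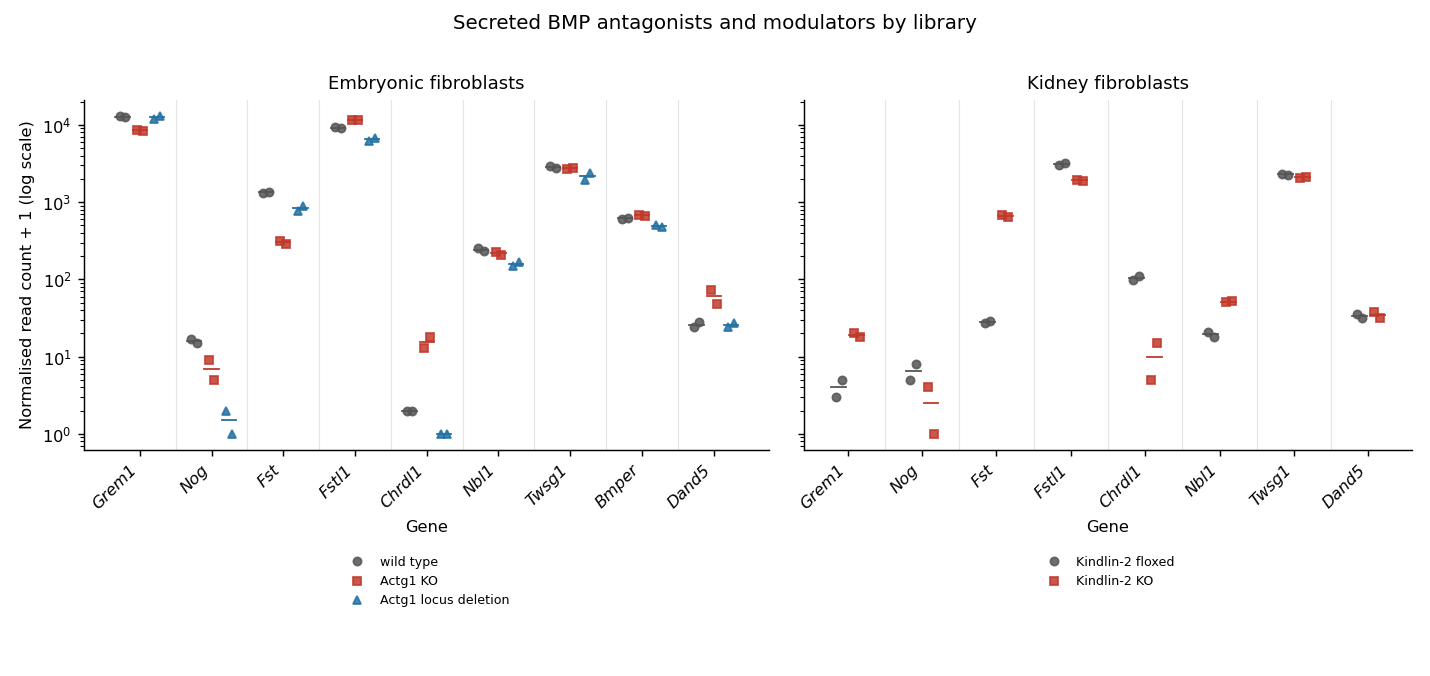
Normalised read count plus 1 on a log axis for secreted antagonists and modulators in MEFs and MKFs, 1 point per library with a line at the mean. Fst of MEFs falls from 1328 and 1369 in wild type to 317 and 285 in the Actg1 KO, and Fst of MKFs rises from 26 and 28 to 683 and 645.

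Of 9 receptor genes tested in ESCs, 2 fell in the KO and 1 in the locus deletion. Of 10 in MEFs 4 rose and 4 fell in the KO and 4 rose and 1 fell in the locus deletion, and of 8 in MKFs 1 rose and 2 fell. In the same order of comparisons 2.44, 5.19, 20.6, 9.46 and 24.3 percent of all genes were called higher and 2.44, 6.0, 19.1, 12.6 and 24.9 percent lower. Bmpr1a, the main type I receptor, and Bmpr2, the main type II receptor, differed by −0.09 and −0.26 in the Actb KO and −0.10 and 0.16 in the Actb locus deletion, and neither passed. In the Actg1 KO Bmpr1a fell by 0.28 (SE 0.0608, limma, adjusted p = 0.00742) and Bmpr2 rose by 0.42 (SE 0.0528, adjusted p = 0.000547 by limma). Bmpr2 rose in the Actg1 locus deletion too, by 0.34, and Bmpr1b, the other type I receptor, rose in both MEF mutants, by 0.63 and 1.09. Acvrl1, the receptor for BMP9 on endothelium, went from 0 and 1 to 20 and 18 in the Actg1 KO. Among the other receptors of the KO, Rgma (0.84), a repulsive guidance coreceptor, rose, and Rgmb (from 700 and 665 to 336 and 346), Acvr1 (−0.69) and Acvr2a (−0.31) fell. Acvr1 and Acvr2a lie on chromosome 2, where the median difference over 1645 genes in the KO was −0.44. In the Actg1 locus deletion Rgma (0.47) and Acvr2a (0.27) rose and Rgmb (−0.67) fell. In ESCs Acvrl1 fell in the KO from 22 and 15 to 3 and 4 and in the locus deletion to 4 and 5, and Acvr1 fell in the KO by 0.82. In MKFs Bmpr1a rose by 0.36, Acvr1 fell by 0.40 and Rgma fell by 0.69, while Bmpr2 was at −0.11 and did not pass.

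The inhibitory SMADs, which block the signal and are themselves BMP targets, fell in Actg1 KO MEFs. Smad6 went from 508 and 427 to 208 and 228 (−1.09, SE 0.117, limma, adjusted p = 0.000239) and Smad7 from 2298 and 2065 to 903 and 990 (−1.20, SE 0.0767, adjusted p = 2.13e-05 by limma), and both held with each library left out. In the locus deletion Smad6 stood at 328 and 364 (−0.43) and lost its call with any 1 library left out (limma, adjusted p = 0.0682 to 0.207), and Smad7 at 1988 and 2048 (−0.11) did not pass. In ESCs Smad7 rose in both mutants, by 0.49 in the KO and 0.44 in the locus deletion (limma, adjusted p = 0.0357 and 0.0295). Bambi, a decoy receptor, rose in both MEF mutants, from 44 and 48 to 117 and 120 in the KO and 89 and 98 in the locus deletion, and Smurf2, a ubiquitin ligase of SMADs, fell in the KO by 0.76. In MKFs Bambi fell from 2 and 6 to a listed value of 0, Smurf1 rose by 0.47, and Smad6 (−0.54) and Smad7 (0.21) did not pass.

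The signalling SMADs differed by less than 1 on the log2 scale, apart from Smad9 in ESCs. Smad1 and Smad5 were at −0.46 and 0.17 in the Actb KO and −0.43 and −0.32 in the Actb locus deletion, and neither passed, although Smad1 passed in the locus deletion with a replicate block (limma, adjusted p = 0.0407). Smad1 lies on chromosome 8, whose 1222 genes had a median of −0.34 in the KO and −0.41 in the locus deletion. Smad9 fell in the Actb locus deletion from 30 and 46 to 8 and 5. In the Actg1 KO Smad1 rose by 0.40, beside the chromosome 8 median of 0.32, and Smad9 by 0.31, while Smad5 (−0.06) and Smad4 (−0.17), the common partner, did not pass. In MKFs Smad1 fell by 0.28, Smad4 rose by 0.29 and Smad5 was at 0.05. Smad4 lies on chromosome 18, where the median difference over 443 genes in MKFs was 0.26.

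Of 14 other BMP-responsive genes tested in ESCs, 1 rose in the Actb KO and 2 fell in the locus deletion. Of 13 in MEFs, 4 rose and 1 fell in the Actg1 KO, and 3 fell in the locus deletion. The shares of all genes called are those given above for the receptors. Id4, the remaining Id gene, stood at 1 and 1 in floxed and 30 and 39 in Kindlin-2 KO MKFs and rose (4.14, SE 0.326, limma, adjusted p = 0.000696), with an adjusted p of 0.0501 and 0.05 without floxed library 1 or 2. It fell in the Actg1 locus deletion from 41 and 50 to 18 and 18, a call lost with any 1 library left out (limma, adjusted p = 0.0762 to 0.112), and was at 64 and 96 in the Actg1 KO, and in ESCs it did not pass in either mutant (−0.74 and 0.13). In MKFs 4 of the 9 tested fell, where 24.9 percent of all genes were called lower. These were Gata2 (from 33 and 21 to 3 and 3), Gata3 (18 and 13 to 1 and 3), Hey1 (18 and 25 to 4 and 3) and Runx2 (−1.23), the master regulator of bone formation. Gata2 rose in the Actb KO from 58 and 62 to 200 and 195 (1.70, SE 0.206, limma, adjusted p = 0.00448). In the Actb locus deletion Msx2 fell from 39 and 46 to 19 and 21 and Dlx3 from 25 and 28 to 2 and 5, both homeobox genes. In the Actg1 KO Hey1 (15 and 32 to 99 and 103), Dlx5 (20 and 18 to 42 and 48), Tbx3 (1 and 0 to 16 and 18) and Dlx3 (0 and 0 to 6 and 2) rose and Runx2 (−0.56) fell. In the Actg1 locus deletion Dlx5 fell from 20 and 18 to 5 and 5 and Tbx2 from 4 and 6 to 1 and 0.

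Furin, an enzyme that cuts BMP precursors, fell in the Actb KO (−0.57), in the Actb locus deletion (−0.62) and in Kindlin-2 KO MKFs (−0.75). It rose in the Actg1 locus deletion (0.61). Bmp1, a metalloproteinase and not a BMP ligand despite its name, rose in the Actg1 KO (0.82) and fell in MKFs (−0.86). Tll1, its relative, rose in both MEF mutants (1.59 and 0.99) and fell in the Actb locus deletion (−1.48), and it lies on chromosome 8. Pcsk6 fell in the Actg1 KO (−0.83), rose in the locus deletion (0.51) and in MKFs went from a listed 0 to 6 and 2. The E proteins that Id proteins bind fell in part. Tcf3, Tcf4 and Tcf12 all fell in MKFs (−0.61, −0.79 and −0.94), where 24.9 percent of all genes were called lower. The MKF medians of their chromosomes (10, 18 and 9) were −0.38, 0.26 and −0.46. Tcf3 and Tcf4 fell in both MEF mutants, Tcf12 rose in the Actg1 locus deletion (0.22), and none of the 3 passed in ESCs.

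Between the 2 mutants of a gene, 6 of 52 pathway genes were higher in the KO than in the locus deletion in ESCs (median −0.03 beside 0 over all genes), and 0 to 2 passed when 1 library was left out. These were Gata2 (2.17), Msx2 (1.97), Dlx3 (2.64), Fst (0.87), Smad5 (0.50) and Fstl1 (1014 and 1055 against 322 and 359), and a block on library number gave 7 higher and 3 lower. Of all genes 2.56 percent were called higher and 2.32 percent lower between the ESC mutants. In MEFs 22 of 52 were higher in the KO and 15 lower (median 0.29 beside 0.07), with 21 and 22 in all without KO library 1 or 2. Between the MEF mutants 24.5 percent of all genes were called higher in the KO and 20.7 percent lower. Of 9 antagonists 7 were higher, among them Chrdl1 (12 and 17 against 0 and 0), Dand5 (1.22), Fstl1 (0.83), Nbl1 (0.45), Bmper (0.45) and Twsg1 (0.35), and 1 was lower, Fst (−1.47, SE 0.0947). Among the targets Id4 (2.06), Dlx5 (2.94) and Hey1 (2.55) were higher in the KO and Msx2 (−0.57) and Runx2 (−0.49) lower, and among the SMADs Smad7 (−1.09), Smurf2 (−0.89), Smad6 (−0.66, up to an adjusted p of 0.0747 by limma with 1 library left out) and Smad4 (−0.31) were lower and Smad9 (0.62) and Smurf1 (0.40) higher. Acvr1 (−0.93), Acvr2a (−0.59), Bmpr1b (−0.45), Rgmb (−0.33) and Bmpr1a (−0.23) were the receptors lower in the KO, and Acvrl1 (20 and 18 against 0 and 0) and Rgma (0.37) those higher. Between the MEF mutants the median was −0.54 on chromosome 2 (Acvr1 and Acvr2a), −0.31 on chromosome 18 (Smad4 and Smad7) and 0.65 on chromosome 4 (Nbl1).

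The genes whose log2 values ran most like those of Id1 over the 6 ESC libraries, among 11368 with a mean of at least 50, were Cdk6 (Pearson r = 0.996), Ebp (0.996) and Irak3 (0.994). Over the 6 MEF libraries, among 11228 genes, they were Crem (0.999), Tprn (0.998) and Slc25a12 (0.998). The libraries within a genotype share most of this variation, so the correlations describe 3 genotypes. Among the members, Id3 (0.844) and Bmp4 (0.76) had the highest r with Id1 in ESCs, while in MEFs Grem1 had 0.952, Id2 −0.941 and Id3 −0.853. Grem1 and Id1 share chromosome 2, whose median was −0.44 in the Actg1 KO and 0.09 in the locus deletion, and its part in this r was not tested. Id2 had an r of 0.55 with Id1 in ESCs, where it was high in both mutants and Id1 in the KO only.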

How the data were processed

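RNA was extracted with a miRNeasy micro kit with DNase treatment and made into libraries with a SMARTer stranded total RNA kit, per the labels' protocols. Of tools, DESeq2 1.14.1, featureCounts 1.6.0 (Subread), STAR 2.5.3a and FastQC appear without stated roles, per the submitters' processing notes, and the build is given there as GRCm38 (mm10). The deposited values have the unit score: whole numbers that read, from the values, as reads per gene that the authors scaled by a single factor for each library and then rounded, with a separate table for each cell type. The original depth is therefore unknown. There are 23083 genes for ESCs, 21615 for MEFs and 18288 for MKFs, and each reaches at least 4 (ESC, MEF) or 5 (MKF) in some library.

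Because the values are not raw counts, no count model was used. limma 3.58.1 (R 4.3.3) was fitted to log2(value + 1) with group means over all groups of a table, trended empirical Bayes, a mean of at least 1 and Benjamini-Hochberg adjustment over all genes. Tests were two-sided, called at an adjusted p below 0.05, with 3 (ESC, MEF) or 2 (MKF) residual degrees of freedom, and were made within a table only. The code was tested on simulated data. Tables and figures were made with Python 3.11.15, pandas 2.3.3, scipy 1.17.1 and matplotlib 3.10.9. Replicate libraries correlated at 0.981 to 0.996 (log2 values) and differed by more than sampling noise. Counting intervals take the rounded values as counts and cover counting error only.

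The members and lists were chosen with earlier results of these data known. Named besides the members were list genes past the threshold (the 6 with the largest differences where more than 6 passed), Bmpr1a, Bmpr2, Smad1, Smad4, Smad5, Smad6, Smad7 and Id4, the 3 genes most correlated with Id1 (mean of at least 50) and the targeted genes. Same-numbered ESC libraries deviated together (correlations of deviations of 0.678, 0.349 and 0.492) although the labels give only the numbers. All values given come from the fit without pairing, and a fit with the number as a block is set beside ESC results where it changes a call or count. A gene counted in the pathway totals is not reported here or drawn in the figures.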

Additional observations from a re-analysis of the deposited data

How the results depend on the processing

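Each comparison was refitted with pseudocounts of 5 and 0.5, no low filter, a mean of at least 10, TMM rescaling, rescaling without genes over 1 percent of a library, a replicate block, only the 4 libraries compared, and each library left out. No result changed sign past the threshold. Of the single-gene values over all settings, 1857 kept their side of the threshold outside the left-out fits, 58 lost it and 15 gained it, and with a library left out 631 kept it and 366 lost it.

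With the replicate block, genes called went from 1126 to 1850 (ESC KO against wild type) and from 1125 to 1735 (ESC KO against locus deletion), and other pathway genes from 7 to 13, from 9 to 14 (ESC locus deletion) and from 6 to 10. MEF and MKF libraries shared only a number (correlations from −0.302 to 0.214), and with the block 8159 genes were called in the MEF KO and 7496 in MKFs. Beside the values in the report, the block took the calls of Rgma and Tbx2 in the MEF locus deletion and in the comparison of MEF mutants, of Smad6 in the MEF locus deletion and of Bambi, Pcsk6 and Twsg1 in MKFs.

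With only the 4 libraries compared, genes called were 272, 876 and 214 in the ESC comparisons (KO, locus deletion, KO against locus deletion) and 2986 of 4755 in the MEF locus deletion, and other pathway genes 2, 2, 3 and 15. The cause was not tested. With a library left out, genes called ranged from 0 (2898 at an unadjusted p below 0.05 by limma, without KO library 1) to 18 in the ESC KO, 58 to 370 of 2580 in the ESC locus deletion, 1 to 30 between ESC mutants, 4384 to 5879 of 8581 in the MEF KO, 1803 to 3321 in the MEF locus deletion, 5759 to 8205 of 9754 between MEF mutants and 2112 to 3834 of 8998 in MKFs. Other pathway genes ranged, in that order, from 0 to 0, 0 to 2, 0 to 2, 18 to 25 of 29, 8 to 14 of 23, 21 to 29 of 37 and 8 to 13 of 26. These fits have fewer samples. Rescaling without genes over 1 percent put the median of all genes at 0.141 in the MEF KO, against 0.0595. With 2 libraries a group, small differences in genes of few reads were not detectable.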

Other observations

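The TGF-beta and activin arm, which shares SMAD4 with the BMP arm, was tested in the same fits. In ESCs Lefty2, an inhibitor of Nodal, fell from 1574 and 1845 in wild type to 881 and 920 in the Actb KO (−0.92, limma, adjusted p = 0.00538) and to 473 and 514 in the locus deletion (−1.79, limma, adjusted p = 0.000157). Lefty1 fell in the locus deletion from 108 and 99 to 13 and 3. Of the 15 genes tested, 1 rose and 3 fell in the KO, against 2.44 percent of all genes called higher and 2.44 percent lower. In the locus deletion 3 fell, against 6.0 percent called lower.

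In MEFs Smad3, a transducer of TGF-beta, fell in both mutants, from 2007 and 1970 to 1005 and 1007 in the Actg1 KO (−0.98) and to 970 and 987 in the locus deletion (−1.02), while Tgfb1 rose in both, from 179 and 149 to 370 and 351 in the KO and 319 and 319 in the locus deletion. Tgfbr3, a coreceptor, rose in the KO (0.73) and fell in the locus deletion (−0.78). Of 12 tested, 7 rose and 3 fell in the KO, against 20.6 percent of all genes called higher and 19.1 percent lower. In the locus deletion 4 rose and 4 fell, against 9.46 and 12.6 percent. In Kindlin-2 KO MKFs Tgfb2 fell from 227 and 211 to 18 and 19 (−3.50, limma, adjusted p = 0.000112), and Tgfbr1, Tgfbr2 and Tgfbr3 rose by 0.94, 0.93 and 0.93.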
